A study of Mus musculus with 6 samples.

Results

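The genes described here are the enzymes and regulators that make cholesterol and fatty acids. They were chosen by name as 29 of the 40879 genes in the deposited count table, 19 for the mevalonate and sterol pathway and 10 for fatty acid synthesis. The series used photocatalytic proximity labelling, in which light makes a catalyst tag nearby cells with biotin, to separate tumour-infiltrating CD8 T cells by their distance from tumour cells. MC38-hPD-L1 tumours, grown from a line of the mouse colon carcinoma MC38, were taken at day 12 from C57BL/6N mice. CD8 T cells were sorted into a Biotin+ group (tumour-neighbouring) and a Biotin- group (tumour-distal), with 3 poly(A) RNA-seq libraries in each. Both groups come from the same tumour model, strain and time, and no untreated or unlabelled tumour is part of the comparison. No label states the age or sex of the mice or says that replicates came from separate mice. A p-value here therefore measures the spread between libraries, which may be technical.

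Cells build cholesterol from acetyl-CoA through mevalonate, isoprenoids and squalene, and the ring compound lanosterol is then trimmed to cholesterol. Fatty acids start from the same acetyl-CoA, which ATP citrate lyase exports from citrate, acetyl-CoA carboxylase activates and fatty acid synthase lengthens into palmitate. Elongases, desaturases and acyl-CoA synthetases then shape palmitate and dietary fatty acids for membranes. The transcription factors SREBP2 (gene Srebf2) and SREBP1 (gene Srebf1) switch on most of these genes when sterol in the endoplasmic reticulum is low, and INSIG proteins hold them back when it is high. Activated CD8 T cells are known to turn this programme on as they grow and divide.

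SREBPs are known to act on sterol regulatory elements near the start site, together with NF-Y, which binds CCAAT boxes. Of the 29 genes, 22 matched a RefSeq promoter window in GRCm38.p6, from 250 bases before to 50 bases after the start. The 250 upstream bases are shown, 5′ to 3′ on the gene's own strand, for 4 genes: Hmgcs1 and Srebf2 because they hold a searched sterol element, Fads2 and Acsl3 because they are matched fatty acid genes that were lower in Biotin+ libraries in at least one of the fits below. Elovl6, matched and lower in one of them too, holds none of the motifs searched and is not shown. Capitals mark sterol elements (TCACNCCAC or CACCCCA) and CCAAT boxes on either strand, so that ATTGG is a CCAAT box read from the other strand. Hmgcs1 lies at chr13:119690101-119690350 (+ strand), Srebf2 at chr15:82147019-82147268 (+), Fads2 at chr19:10101504-10101753 (-) and Acsl3 at chr1:78657575-78657824 (+).
Hmgcs1: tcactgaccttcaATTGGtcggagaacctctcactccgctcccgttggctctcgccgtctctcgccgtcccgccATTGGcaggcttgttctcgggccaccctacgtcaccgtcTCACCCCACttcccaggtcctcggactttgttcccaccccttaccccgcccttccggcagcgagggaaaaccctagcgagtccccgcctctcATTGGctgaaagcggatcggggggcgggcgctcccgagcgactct
Srebf2: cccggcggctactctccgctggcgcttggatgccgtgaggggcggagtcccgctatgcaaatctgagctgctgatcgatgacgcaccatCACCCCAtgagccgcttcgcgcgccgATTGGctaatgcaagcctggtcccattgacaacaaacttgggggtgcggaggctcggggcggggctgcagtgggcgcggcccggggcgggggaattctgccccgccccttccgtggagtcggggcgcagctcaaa
Fads2: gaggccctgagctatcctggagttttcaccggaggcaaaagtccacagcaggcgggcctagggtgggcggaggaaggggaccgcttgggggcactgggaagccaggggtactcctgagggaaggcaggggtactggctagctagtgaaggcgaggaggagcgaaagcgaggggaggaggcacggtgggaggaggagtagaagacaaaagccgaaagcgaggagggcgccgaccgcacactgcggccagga
Acsl3: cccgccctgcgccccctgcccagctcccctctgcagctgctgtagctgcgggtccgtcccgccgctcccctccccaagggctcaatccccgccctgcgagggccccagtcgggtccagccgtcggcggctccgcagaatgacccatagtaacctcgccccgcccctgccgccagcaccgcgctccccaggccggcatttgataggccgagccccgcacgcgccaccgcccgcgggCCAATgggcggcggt

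The CCAAT box was in a window of all 15 matched sterol genes and of 4 of the 7 matched fatty acid genes (Fasn, Acly, Acsl3 and Srebf1), against 41.1% of 27025 genes. The longer sterol element TCACNCCAC, searched on both strands, was in 1 of 15 sterol genes (Hmgcs1) and 0 of 7 fatty acid genes, against 1.44% of genes. The shorter CACCCCA, which lies inside the TCACNCCAC match of Hmgcs1, was in 2 of 15 sterol genes (Hmgcs1 and Srebf2) and 0 of 7 fatty acid genes, against 8.66% of genes. The E-box CACGTG was in 4 of 15 and 0 of 7, against 8.09%. The GC box GGGCGG was in 14 of 15 and 4 of 7, against 38.2%. These are matches of letters only.

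Libraries held 16423106 to 19640693 counts, and 13360 genes passed the filter on low counts. A count was found for 15780 to 16213 genes in Biotin+ libraries and 18142 to 18477 in Biotin- libraries. All 15 CD8 T cell identity genes (Cd8a, Cd3e, Lck and others) had positive log2 fold changes for Biotin+ minus Biotin-, with TMM scaling, and 5 passed the test. Their summed level was 8693 to 11580 CPM (TMM-scaled counts relative to library size) in Biotin+ and 4702 to 7048 in Biotin- libraries. The 12 fibroblast and endothelial markers summed to 155 to 337 CPM in Biotin+ and 1039 to 1402 in Biotin- libraries, and 6 of the 10 tested fell. Of 10 macrophage and monocyte markers, all had negative fold changes and 0 passed edgeR's quasi-likelihood test (2 at an unadjusted p under 0.05, 4 with the replicate number as a block). Their sums were 354 to 1098 CPM in Biotin+ and 863 to 3312 in Biotin- libraries. Adipocyte markers summed to 0.188 to 1.88 CPM in Biotin+ and 2.24 to 3.24 in Biotin- libraries, with Adipoq, Lep and Retn at 0 in all 6, and 1 of the 2 tested, Plin4, fell. The 7 epithelial and tumour markers summed to 23.4 to 136 CPM in Biotin+ and 14.2 to 56.8 in Biotin- libraries, mostly Cdh1, which did not pass in edgeR and was higher with the block (adjusted p 0.0361). Of the others, Krt8, Krt19 and Cldn4 were at 0 in all Biotin+ libraries and had 0 to 7 counts in Biotin- libraries. Cldn7 was at 0 in all Biotin- libraries and had 1 to 7 counts in Biotin+ libraries. Krt18 had 3 to 29 counts in Biotin+ and 2 to 7 in Biotin- libraries, and Epcam averaged 4.25 and 4.33 CPM. B cell markers summed to at most 3.06 CPM.

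The desaturase genes Scd1, Fads1 and Fads2 were lower in Biotin+ libraries, with log2 fold changes of -2.26, -1.01 and -1.68. With TMM scaling, the low-count filter and no replicate block, no gene that builds palmitate and no sterol gene passed edgeR's quasi-likelihood test. Some of these genes were called lower under other settings, given below. Each of the 29 genes had counts in every library (the lowest was 32) and all were tested. Of the 10 fatty acid genes, 3 fell (Scd1, Fads1 and Fads2) and 0 rose in Biotin+ libraries, by edgeR's quasi-likelihood test with Benjamini-Hochberg adjustment over all 13360 genes at 0.05. Of the 19 sterol genes 0 passed in either direction in that test (at an unadjusted p under 0.05, 1 was higher and 1 lower). Over all genes, 1.53% were called higher and 6.72% lower. The median log2 fold change was -0.75 for fatty acid genes, 0.13 for sterol genes and 0.06 for all tested genes. The sterol median turned to -0.09 when libraries were scaled by size alone, a scaling that shifted all genes by -0.20. Leaving out Biotin+ replicate 2 gave -0.07, and leaving out Biotin- replicate 1 gave -0.01. In bulk libraries, fewer cells of a type and less RNA per cell cannot be told apart.

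Libraries that share a replicate number deviated together, and with that number as a block 6 fatty acid genes passed as lower: Scd2, Elovl6 and Acsl3 joined the 3 above. The block added 1 sterol gene, Sqle, as lower, and 0 of the 29 as higher. Over all genes the blocked test called 5.60% higher and 12.0% lower. Group ranges of CPM did not overlap for 6 of the 29 with Biotin+ lower (Sqle, Scd1, Scd2, Acsl3, Fads1 and Fads2) and 2 with Biotin+ higher (Srebf2 and Srebf1), against 15.9% and 13.4% of all tested genes.

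**Figure D1:**
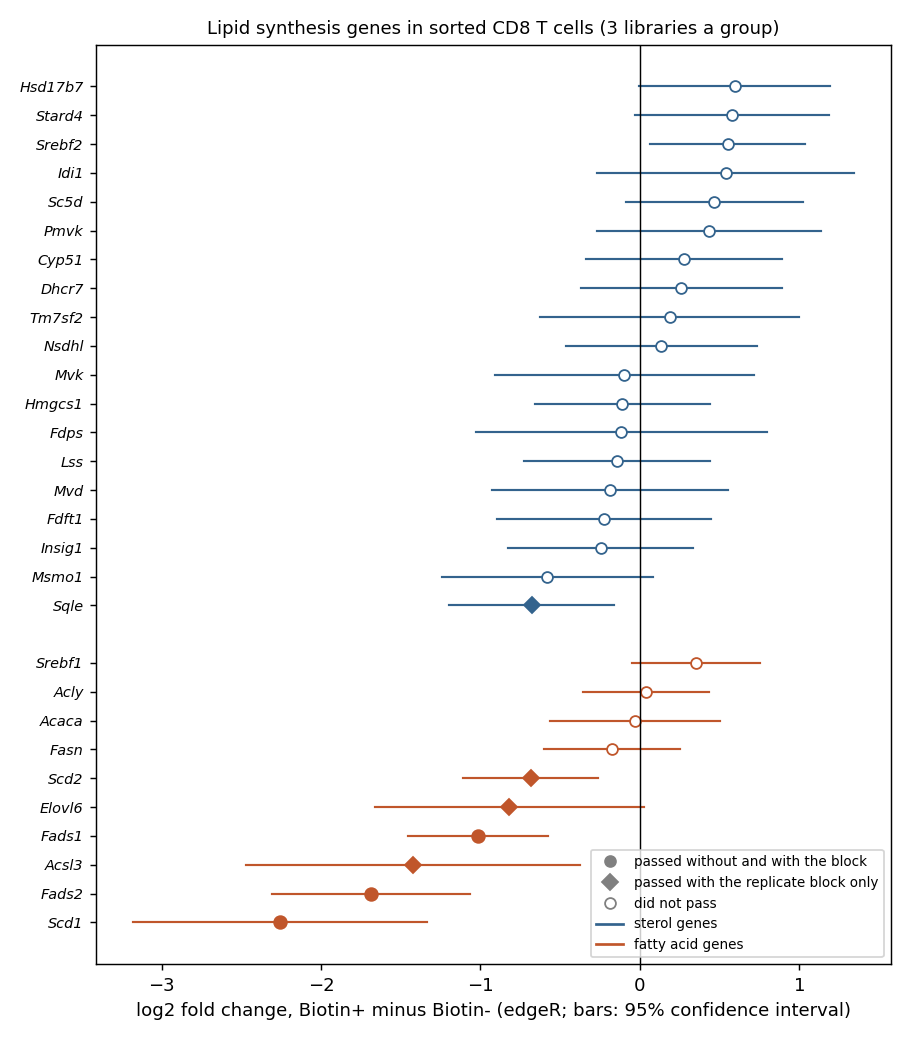
Log2 fold change of each gene, Biotin+ minus Biotin-, with its 95% confidence interval, 3 libraries a group. Scd1 (-2.26), Fads2 (-1.68) and Fads1 (-1.01) passed with and without the replicate block, and the sterol genes lie on both sides of 0, between -0.68 and 0.59.

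Stearoyl-CoA desaturase Scd1, which makes oleate and palmitoleate from saturated fatty acids, was at 6.80, 4.25 and 14.5 CPM in Biotin+ replicates 1 to 3 and at 32.6, 35.1 and 54.8 CPM in Biotin- replicates 1 to 3. Every Biotin+ library was below every Biotin- library. The log2 fold change was -2.26 ± 0.42 (SE) (edgeR's quasi-likelihood test, adjusted p 0.0113). Scd2, a desaturase with the same reaction, was at 148, 129 and 145 CPM in Biotin+ and 223, 195 and 258 CPM in Biotin- libraries. The ranges were again separate. Its log2 fold change was -0.68 ± 0.19, with an adjusted p of 0.0530 in edgeR and 0.0130 with the block. Per kilobase of transcript, Scd2 was the more abundant of the pair in both groups, at 25.7 against 1.76 CPM per kb in Biotin+ and 41.4 against 8.45 in Biotin- libraries.

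Fads2 and Fads1 encode the desaturases that turn essential dietary fatty acids into long polyunsaturated ones such as arachidonate. Fads2 was at 10.1, 13.8 and 16.6 CPM in Biotin+ and 37.4, 34.7 and 58.3 CPM in Biotin- libraries. Its log2 fold change was -1.68 ± 0.28, with an adjusted p of 0.00837 in edgeR, the smallest among the 29 genes. Fads1 was at 33.4, 29.0 and 30.6 CPM in Biotin+ and 63.7, 53.5 and 70.7 CPM in Biotin- libraries. Its log2 fold change was -1.01 ± 0.20, with an adjusted p of 0.0144 in edgeR. Neither gene had overlapping groups. Fads2 passed when any library was left out. Scd1 did not pass without Biotin- replicate 3 (adjusted p 0.0549, edgeR), nor Fads1 without Biotin- replicate 1 (0.0571) or Biotin- replicate 3 (0.0790).

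Acsl3 and Elovl6 had low counts and uneven Biotin+ libraries, as did Scd1, with 68 to 240 counts in Biotin+ libraries. Acsl3, an acyl-CoA synthetase that activates fatty acids at the endoplasmic reticulum and lipid droplets, was at 6.96, 2.0 and 9.39 CPM in Biotin+ and 14.7, 13.2 and 21.5 CPM in Biotin- libraries. The groups did not overlap, and Biotin+ replicate 2 was lowest. Its log2 fold change was -1.43 ± 0.47 (adjusted p 0.0976 in edgeR, 0.00219 with the block). Elovl6, which lengthens palmitate towards stearate, was at 5.88, 7.88 and 17.6 CPM in Biotin+ and 17.6, 17.0 and 20.8 CPM in Biotin- libraries. Biotin+ replicate 3 lay within the Biotin- range. Its log2 fold change was -0.82 ± 0.38 (adjusted p 0.236 in edgeR, 0.0255 with the block).

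Summed over Scd1, Scd2, Elovl6, Acsl3, Fads1 and Fads2, the level was 211, 186 and 233 CPM in Biotin+ replicates 1 to 3 and 389, 349 and 484 CPM in Biotin- replicates 1 to 3. These 6 genes are the fatty acid genes that passed as lower with the block. Their lower sum, and their lower level in the Biotin+ library of all 3 pairs, follow from that choice. Of all 10 fatty acid genes, 7 were lower in all 3 pairs, as were 24% of all tested genes. In the same order, fibroblast and endothelial markers summed to 175, 155 and 337 CPM and to 1402, 1039 and 1348 CPM. Biotin+ replicate 3 was highest of its group in both sums, and Biotin- replicate 2 lowest of its group in both. Among Biotin- libraries, the marker sum was highest in replicate 1 and the 6-gene sum in replicate 3. The part of these cells in the lower desaturase levels was not tested.

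**Figure D2:**
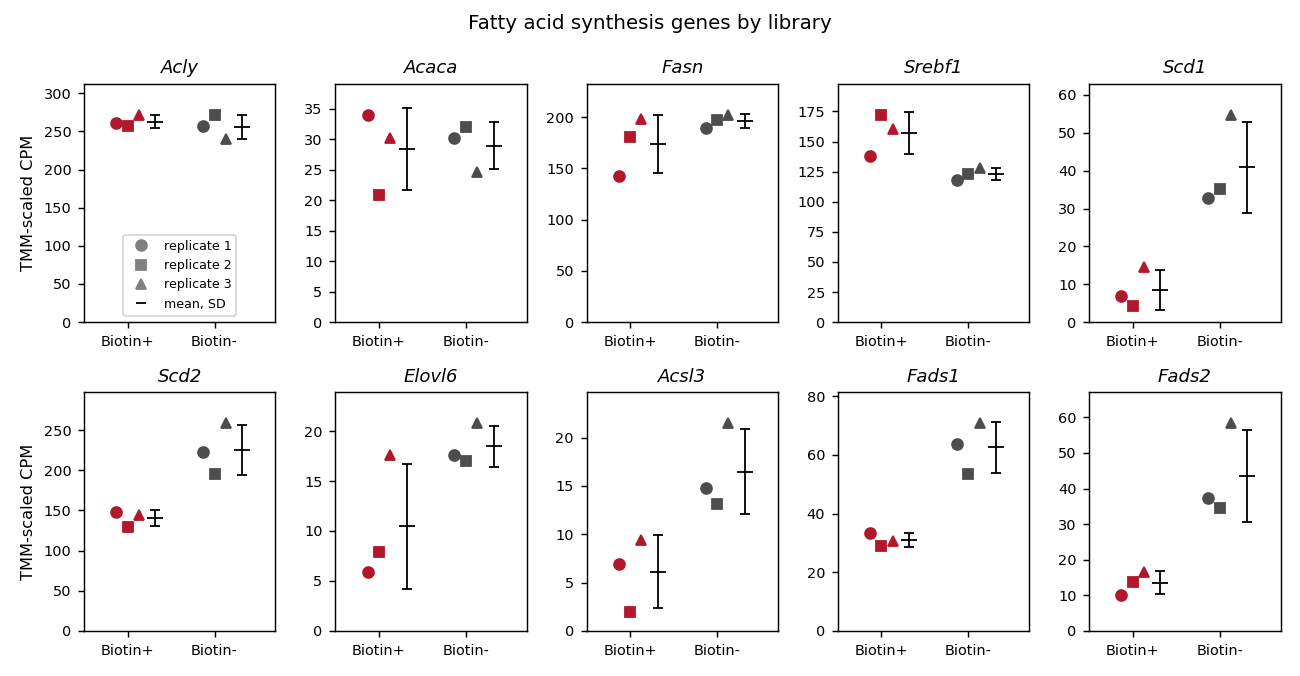
TMM-scaled CPM of the 10 fatty acid genes in each library, marked by replicate number, with the mean and SD of 3 libraries beside each group. Scd1, Scd2, Acsl3, Fads1 and Fads2 show Biotin+ libraries wholly below Biotin- libraries, and Acly, Acaca and Fasn overlap.

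The 3 genes that make palmitate had overlapping groups. Acly, the citrate lyase, was at 260, 256 and 272 CPM in Biotin+ and 257, 271 and 239 CPM in Biotin- libraries. The groups overlapped, and the 95% confidence interval of the log2 fold change was -0.36 to 0.44. Fasn, fatty acid synthase, was at 142, 181 and 198 CPM in Biotin+ and 189, 197 and 202 CPM in Biotin- libraries, with an interval of -0.60 to 0.25. Acaca, the carboxylase, was at 34.0, 20.9 and 30.2 CPM in Biotin+ and 30.2, 31.97 and 24.6 CPM in Biotin- libraries, with an interval of -0.56 to 0.51. Adjusted p-values for the 3 were 0.643 to 0.960 in edgeR's quasi-likelihood test. Of the 75-base windows of the Acaca transcript, 47.4% also occur in Gm5182, so its count is uncertain. When libraries were scaled to CD8 T identity genes, all 29 fold changes were negative and the shift of all genes was -0.78. Fasn then passed as lower at -0.96 and Acly at -0.74, and Acaca did not pass.

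Srebf1 and Srebf2, the regulators themselves, were the 2 of 29 genes with wholly higher Biotin+ libraries, against 13.4% of all tested genes. Neither passed, and both fold changes were negative when libraries were scaled to CD8 T identity genes. Srebf2 was at 339, 551 and 431 CPM in Biotin+ and 290, 316 and 297 CPM in Biotin- libraries. Biotin+ replicate 2 stood highest. The log2 fold change was 0.55 ± 0.22, with an adjusted p of 0.169 in edgeR and 0.0538 with the block. Srebf1 was at 138, 172 and 160 CPM in Biotin+ and 118, 123 and 128 CPM in Biotin- libraries. Its log2 fold change was 0.35 ± 0.18, with an adjusted p of 0.286 in edgeR and 0.214 with the block. Insig1, which retains SREBPs in the endoplasmic reticulum and is itself an SREBP target, was at 80.1, 86.6 and 136 CPM in Biotin+ and 89.5, 119 and 151 CPM in Biotin- libraries, with overlapping groups and a log2 fold change of -0.25 ± 0.26.

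Among the enzymes that lead from acetyl-CoA to isoprenoids, Hmgcs1, the synthase of the early mevalonate pathway, was at 68.3, 88.1 and 111 CPM in Biotin+ and 69.7, 115 and 103 CPM in Biotin- libraries. The replicate 1 library was lowest in each group, and the log2 fold change was -0.11 ± 0.25. Mvk, Pmvk and Mvd, the kinases and decarboxylase of the mevalonate steps, averaged 28.5, 26.0 and 17.3 CPM in Biotin+ and 30.5, 19.3 and 19.7 CPM in Biotin- libraries. For the isomerase Idi1 and the synthase Fdps the means were 24.8 and 125 CPM in Biotin+ and 17.1 and 135 CPM in Biotin- libraries. Counts of Fdps are uncertain, since 80.4% of its 75-base windows also occur in Gm3571, Gm7979 and other transcripts. Counts of Idi1 are uncertain too, with 29.1% of its windows in other genes, such as Gm13502 and Gm7654, or antisense to Gm48574. None of these 6 genes passed with or without the block.

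At the squalene steps, Sqle, the epoxidase that commits squalene to sterols, was at 32.8, 36.9 and 52.3 CPM in Biotin+ and 57.6, 59.99 and 77.9 CPM in Biotin- libraries, with no overlap. The log2 fold change was -0.68 ± 0.23 (adjusted p 0.110 in edgeR, 0.0205 with the block). Fdft1, squalene synthase, averaged 40.2 against 46.9 CPM and the cyclase Lss 27.0 against 29.8 CPM. Both had overlapping groups. Counts of Fdft1 are uncertain, with 25.4% of its 75-base windows also in Gm6781 or antisense to Ctsb.

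The enzymes after lanosterol went in different directions, none past the test. The demethylase Cyp51 averaged 159 CPM in Biotin+ and 131 in Biotin- libraries, Sc5d 35.6 and 25.8, Nsdhl 18.98 and 17.3, Dhcr7 32.3 and 27.0, and Tm7sf2 5.33 and 4.68. Msmo1, a methyl sterol oxidase, was the lower one at 32.2 against 48.2 CPM, with a log2 fold change of -0.58 ± 0.30. Hsd17b7, a sterol ketoreductase, was at 20.7, 30.3 and 25.2 CPM in Biotin+ and 12.6, 21.9 and 16.0 CPM in Biotin- libraries, and was higher in the Biotin+ library of every pair (log2 fold change 0.59 ± 0.27, adjusted p 0.225 in edgeR). Stard4, which carries cholesterol between membranes, was at 54.5, 93.0 and 78.5 CPM in Biotin+ and 41.7, 69.7 and 40.3 CPM in Biotin- libraries (log2 fold change 0.58 ± 0.27, adjusted p 0.249 in edgeR). Over the 19 sterol genes, 7 were higher in all 3 pairs (Idi1, Cyp51, Sc5d, Nsdhl, Srebf2, Stard4 and Hsd17b7), 3 were lower in all 3 (Sqle, Insig1 and Msmo1) and 9 were mixed. Over all tested genes, 26.8% were higher and 24% lower in all 3 pairs.

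Sterol gene levels differed by replicate number in both groups. For 14 of the 19, replicate 1 was the lowest library in both groups (73.7%, against 13.8% of all tested genes and 2 of the 10 fatty acid genes). Both replicate 1 libraries were below their group mean for 17 of 19 sterol genes and 5 of 10 fatty acid genes, against 32.8% of all genes. Fatty acid genes also differed by replicate number. Both replicate 3 libraries were above their group mean for 7 of 10 fatty acid and 13 of 19 sterol genes, against 31.5% of all genes. Summed sterol levels were 957, 1634 and 1441 CPM in Biotin+ replicates 1 to 3 and 969, 1274 and 1363 CPM in Biotin- replicates 1 to 3. The replicate 1 libraries held 18932057 (Biotin+) and 19035864 (Biotin-) counts, and the part of depth in the sterol levels was not tested. Biotin+ replicate 2, above its group mean for 17 of 19 sterol genes, also had the highest sum of 12 cell cycle genes. That sum was 1660, 3110 and 1541 CPM in Biotin+ replicates 1 to 3 and 1362, 1697 and 1255 CPM in Biotin- replicates 1 to 3. Replicate 3, not replicate 1, was lowest for it in both groups. The part of cell cycling in the sterol levels was not tested.

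**Figure D3:**
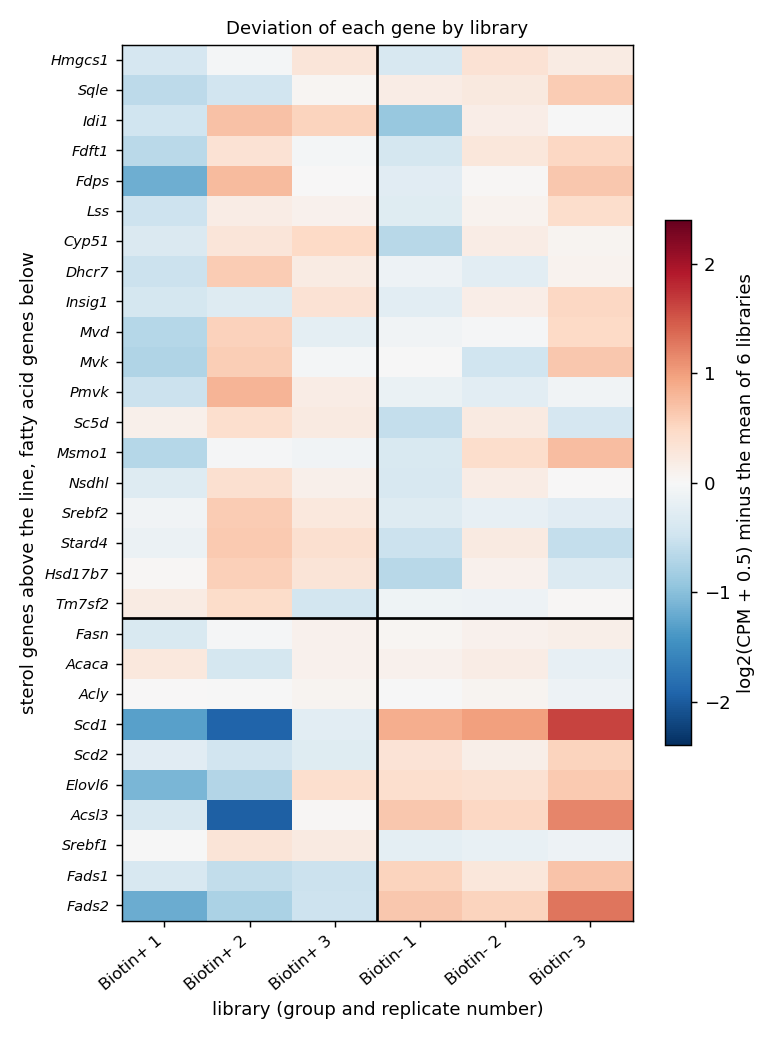
Deviation of log2(CPM + 0.5) of each gene from its mean over 6 libraries, by library, with sterol genes above the line and fatty acid genes below. Sterol genes are mostly blue in Biotin+ replicate 1 and Biotin- replicate 1, whereas Scd1, Acsl3, Fads1 and Fads2 split by biotin group.

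**Figure D4:**
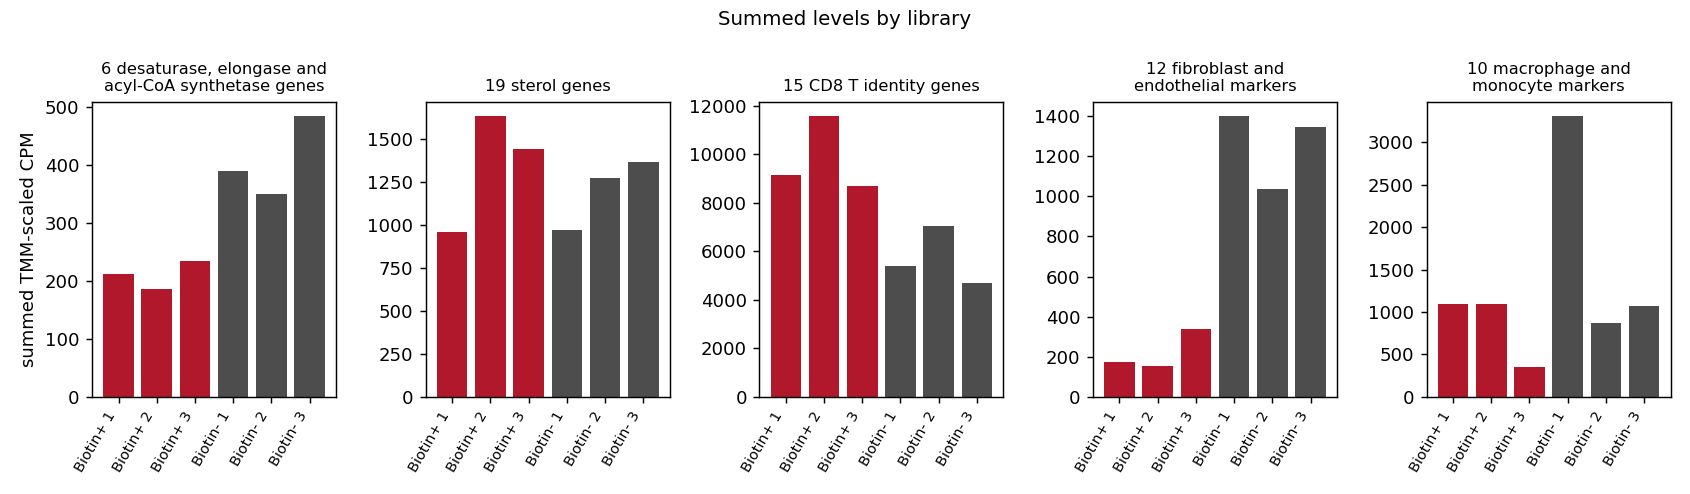
Summed TMM-scaled CPM per library for Scd1, Scd2, Elovl6, Acsl3, Fads1 and Fads2, the 19 sterol genes and 3 marker lists, with bars in red for Biotin+ and grey for Biotin-. The sums of these 6 genes (186 to 233 CPM in Biotin+, 349 to 484 in Biotin-) and the fibroblast and endothelial markers (155 to 337 and 1039 to 1402) are both lower in Biotin+ libraries, and the sterol sums overlap. The 6 genes are the fatty acid genes that passed as lower with the replicate block, so their lower sum follows from that choice.

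On a per-length scale, mean levels in Biotin+ libraries ran from 1.55 CPM per kb for Acsl3 to 90.1 for Fdps. Srebf2 (86.8), Acly (59.4), Cyp51 (40.5), Insig1 (37.4) and Srebf1 (36.5) followed Fdps, and Scd1 and Elovl6 (both 1.76) stood next to Acsl3. Levels of uncertain genes such as Fdps carry the limit given above.

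Other genes of lipid metabolism were taken from 5 lists with 102 genes, of which 89 were tested. Of these, 0 rose and 9 fell in edgeR's quasi-likelihood test (10 and 12 at an unadjusted p under 0.05), and with the block 4 rose and 13 fell. The 9 are 10.1% of the 89, against 6.72% of all tested genes called lower. With the block, 4.49% rose and 14.6% fell, against 5.60% and 12.0% of all tested genes, so the counts are near the background. The median log2 fold change of the 89 was 0.03, close to that of all tested genes.

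Sterol uptake, transport and efflux held 4 of the 9 (of 22 tested, 18.2% against 6.72% of all genes; not tested as a set), among them Vldlr, Abcg1 and Cyp7b1. Vldlr, a lipoprotein receptor, averaged 4.00 ± 2.55 CPM in Biotin+ and 18.96 ± 9.30 (SD, n = 3 libraries each) in Biotin- libraries. Abcg1, which exports cholesterol, averaged 25.0 ± 10.3 and 50.6 ± 3.39 CPM. Cyp7b1, an oxysterol hydroxylase, had 1 to 6 counts in Biotin+ and 20 to 46 in Biotin- libraries.

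Of 28 tested genes of fatty acid and glycerolipid synthesis outside the 10, Me1 (a source of NADPH), Acsl6 (an acyl-CoA synthetase) and Hacd1 (a dehydratase of chain elongation) fell, with log2 fold changes of -2.12, -1.90 and -1.92 and means at or below 1.90 CPM in Biotin+ libraries. Of the other elongation and acyl-CoA synthetase genes in that list, 13 were tested, and besides Acsl6 and Hacd1 none passed: log2 fold changes were 0.40 for Elovl1, 0.05 for Elovl5, 0.41 for Hsd17b12 and 0.27 for Tecr, and 9 of the 13 were positive. Cyb5r3, which passes electrons to the desaturases, was the 1 of 11 other sterol and isoprenoid genes that fell, at -1.05 ± 0.22 (adjusted p 0.0180 in edgeR). The isomerase Ebp and the scaffold Erg28 averaged 64.8 and 31.6 CPM in Biotin+ and 44.1 and 20.7 CPM in Biotin- libraries and did not pass. Among 9 genes that control SREBPs, Erlin1 fell (-1.30 ± 0.30, adjusted p 0.0279 in edgeR), while Scap, the SREBP escort, averaged 125 against 85.1 CPM with an adjusted p of 0.103. Mbtps2, a protease that releases SREBPs, averaged 7.18 against 13.1 CPM (adjusted p 0.110 in edgeR, 0.0401 with the block). None of 19 fatty acid oxidation genes passed in edgeR's quasi-likelihood test (2 at an unadjusted p under 0.05), with means of 61.8 against 42.5 CPM for Acads, 101 against 57.7 for Etfb and 58.6 against 43.2 for Acaa2. Etfb was higher with the block. The fibroblast and endothelial markers, summed above, were lower in the same Biotin+ libraries, and their part in these 9 genes was not tested. Calls changed with the libraries kept: without Biotin- replicate 3, 0 of the 89 fell, without Biotin+ replicate 2, 1 did, and without Biotin- replicate 1, 2 did.

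**Figure D5:**
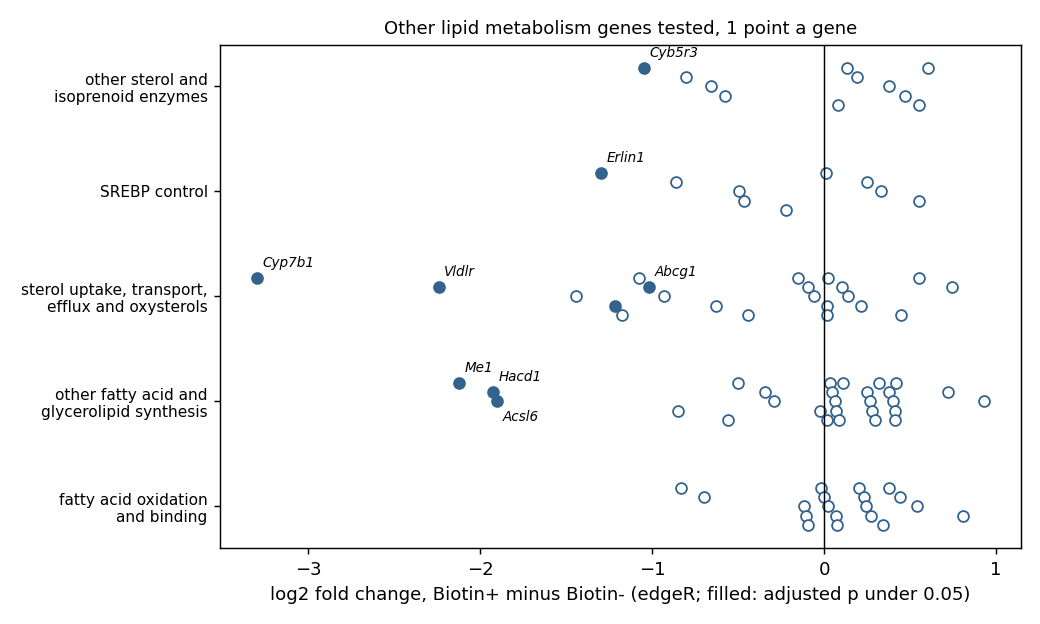
Log2 fold changes (Biotin+ minus Biotin-) of 89 other lipid metabolism genes by list, 1 point a gene, filled where the adjusted p was under 0.05. The 9 filled points, from Cyp7b1 to Abcg1, are all on the negative side.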

How the data were processed

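Values are the authors' deposited raw counts per gene, with no normalization. Trim Galore 0.6.7, STAR 2.7.10a, Picard 1.14, featureCounts 2.0.1 and GRCm39 are named in the submitters' processing notes; the annotation, strand setting and treatment of shared reads were not given in the sources used. Libraries were grouped by their titles. Of 40879 genes, 18545 had no count in any library and 13360 passed filterByExpr. Counts were scaled by TMM and tested with edgeR 4.0.16 (quasi-likelihood F test, robust, common biological coefficient of variation 0.311) in R 4.3.3, Benjamini-Hochberg over all genes, threshold 0.05. The SE is the log2 fold change over the root of F. Same-numbered libraries of the 2 groups had correlated deviations from their group means (0.424, 0.272 and 0.430), so the numbers were taken to pair libraries. Values for the other pairs were -0.107 to -0.304. Deviations from a group mean sum to 0, so positive same-number values force negative ones among the others. Those are not separate evidence for pairing. No pairing is stated in the labels. Tests were checked on simulated data with no replicate effect and with equally many raised and lowered genes. That check does not cover the replicate pattern or the one-sided calls of these libraries. No replicates of a group were as alike as counting error allows (chi-square over its degrees of freedom, 35.6 to 103). Genes named were members, those always reported, those that passed and, from each list of related genes, the 3 with the smallest p, with the exception given at the end. Members and lists were chosen with earlier results of these data known. Lengths and shared 75-base windows come from a GENCODE annotation of GRCm38, promoters from RefSeq. Alternatives were DESeq2 1.42.0 and limma 3.58.1 voom, other scalings and filters, a block, and each library left out. Some related genes that enter these counts are not reported here by name.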

Additional observations from a re-analysis of the deposited data

How the results depend on the processing

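Direction held for Scd1, Fads1 and Fads2 under every alternative, and Fads2 passed in each. Scd2 did not pass in the test reported but passed in the 9 other alternatives that keep all 6 libraries. With 1 library left out, Scd2 passed in 1 of 6 fits, that without Biotin- replicate 2. In the others its adjusted p was up to 0.219 (edgeR). The replicate block, taken from numbers that pair the libraries, called 748 genes higher and 1599 lower, 1 sterol and 6 fatty acid genes lower, and 4 related genes higher; it changed the calls of Sqle, Scd2, Elovl6 and Acsl3 among the members. Without a filter, 396 genes were higher and 1495 lower, with 1 sterol gene lower, 5 fatty acid genes lower and 1 related gene higher. DESeq2 gave 471 and 1389, with 5 fatty acid genes lower and 1 related gene higher, and limma-voom 331 higher with 1 related gene higher. Library size alone gave 84 higher and a log2 ratio of summed fatty acid CPM of -0.49 (-0.28 with TMM). Scaling to CD8 T identity genes shifted all genes by -0.78 and gave 20 higher and 3947 lower of 13360 tested genes. Against that background, 7 of 19 sterol, 8 of 10 fatty acid and 33 of 89 related genes were lower. This scaling gave summed log2 ratios of -0.65 (sterol) and -1.07 (fatty acid), with Fasn at -0.96 and Acly at -0.74. The share of calls that were higher was 18.6% with TMM, 8.61% with library size, 0.504% with identity scaling and 31.9% with the block. With 1 library left out in turn, 23 to 200 genes were higher and 239 to 1044 lower, 1 (without Biotin- replicate 3) to 5 (without Biotin+ replicate 3) fatty acid genes were lower, and of related genes 0 to 1 were higher and 0 to 8 lower, and the summed fatty acid log2 ratio was -0.38 to -0.24. The lowest counts came without Biotin- replicate 3, and 364 and 445 genes were lower without Biotin+ replicate 2 and Biotin- replicate 1. The cause of these shifts was not tested. Levels of members with few counts, such as Acsl3 with 32 in Biotin+ replicate 2, carry more counting error. That library had the most counts of all, 19640693.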

Other observations

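Fads1 and Fads2 lie beside Fads3 on mouse chromosome 19, a locus looked at after the values were seen. Fads3, a desaturase of sphingoid bases, was at 9.33, 7.63 and 17.8 CPM in Biotin+ replicates 1 to 3 and at 58.7, 26.3 and 68.7 CPM in Biotin- replicates 1 to 3. The groups did not overlap, and Fads3 fell by 2.14 on the log2 scale (SE 0.41; edgeR's quasi-likelihood test, adjusted p 0.0127). It did not pass without Biotin+ replicate 2 or without Biotin- replicate 3. Fen1, a DNA replication nuclease next to Fads1, had means of 105 (Biotin+) and 65.5 CPM (Biotin-), with an adjusted p of 0.0748 in edgeR and 0.0204 with the replicate block. Tmem258, the next gene, averaged 73.2 and 52.4 CPM and did not pass.

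Scd1 and Scd2 lie at another locus of the same chromosome, with Scd3 and Scd4 between or beside them. Scd3 had 0 counts in 5 libraries and 2 in Biotin- replicate 1, and Scd4 had 0 to 8 counts a library. Ndufb8 and Bloc1s2, the flanking genes with the most counts, averaged 119 and 34.9 CPM in Biotin+ and 92.7 and 28.2 CPM in Biotin- libraries, and neither passed. Of the 75-base windows of Scd1, 3.24% also occur in other transcripts, among them Scd2, and of those of Scd2 1.80% do, and both shares are small beside the 80.4% of Fdps.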
